A study of Homo sapiens with 4 samples.

Results

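Kruppel-like factor (KLF) genes encode transcription factors, and 10 of them, KLF2, KLF3, KLF4, KLF6, KLF7, KLF10, KLF11, KLF12, KLF13 and KLF16, were followed here. Every probe set annotated to one of these genes alone was taken, which gave 35 of 54675 probe sets, for 10 of 19775 genes on the array. The genes were chosen by name, with earlier results of these data known. KLF2 was selected on its array values, because they were low at all 3 treatment times. Its differences from the control are therefore a description and were not tested. The cells of every group were MM.1S, an established human multiple myeloma line, and the 3 treated groups received MLN4924 at 250 nM over 8, 16 or 24 h. The control group received the vehicle DMSO, with no culture time in the labels. The drug blocks the NEDD8-activating enzyme, which starts the attachment of the ubiquitin-like protein NEDD8 to cullins, the scaffolds of a large class of ubiquitin ligases. Each of the 4 groups was 1 array, with no replicates. No test between groups was possible, the number of arrays limited the precision, and all 3 differences from control used the same control array.

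KLF proteins share zinc fingers at the carboxyl-terminal end that bind GC-rich and CACCC sequences, and differ in the other part of the protein, which activates or represses transcription. KLF2 keeps lymphocytes quiescent and directs their traffic through lymphoid tissue. In endothelium it is switched on by blood flow through a kinase cascade that ends at MEF2 factors bound to its promoter. In myeloma cells KLF2 has been described as an activator of IRF4, a transcription factor on which these cells depend.

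The bases just before the start of KLF2 are shown because KLF2 carries the main difference, beside those of KLF6, which was also below the control at all 3 times, and of KLF13, which went below and then above it. KLF10 was further below the control than KLF6 at each time, but no window of KLF10 was used. Each run is the 250 bases before the RefSeq start (build GRCh38.p14), 5' to 3' on the gene's own strand. KLF2 is at chr19:16324576-16324825 (plus strand), KLF6 at chr10:3785210-3785459 (minus strand) and KLF13 at chr15:31326585-31326834 (plus strand). Capitals mark the GC box GGGCGG, the CACCC box and the MEF2 motif, each searched on both strands.
KLF2: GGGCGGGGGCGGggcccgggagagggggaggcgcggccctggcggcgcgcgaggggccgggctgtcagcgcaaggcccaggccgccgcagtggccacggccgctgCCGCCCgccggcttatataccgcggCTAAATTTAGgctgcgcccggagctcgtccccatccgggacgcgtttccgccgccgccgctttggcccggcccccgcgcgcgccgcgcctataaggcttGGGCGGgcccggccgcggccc
KLF6: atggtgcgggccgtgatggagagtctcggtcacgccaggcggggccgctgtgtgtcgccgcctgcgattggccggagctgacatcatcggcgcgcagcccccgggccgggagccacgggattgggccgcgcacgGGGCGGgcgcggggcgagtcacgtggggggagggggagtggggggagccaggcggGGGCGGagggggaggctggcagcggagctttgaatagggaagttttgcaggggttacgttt
KLF13: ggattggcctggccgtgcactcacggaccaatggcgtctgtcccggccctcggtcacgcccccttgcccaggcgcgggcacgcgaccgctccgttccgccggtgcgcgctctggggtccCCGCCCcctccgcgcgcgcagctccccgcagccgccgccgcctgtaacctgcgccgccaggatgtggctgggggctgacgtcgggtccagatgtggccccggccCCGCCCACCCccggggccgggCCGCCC

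The KLF2 window held 4 GC boxes, no CACCC box and 1 MEF2 motif, the letters CTAAATTTAG, from 120 to 111 bases before the start. GC boxes were present in 42.6%, CACCC boxes in 54.7% and MEF2 motifs in 2.8% of all 35116 windows of the same length. The KLF6 window held 2 GC boxes and no other motif, and that of KLF13 held 3 GC boxes and 1 CACCC box that overlapped a GC box. RefSeq windows were used for 8 of the 10 genes, all but KLF3 and KLF10. There were 15 windows in all because KLF7 and KLF12 have 4 each and KLF11 has 2. Of these, 9 held a GC box, 6 a CACCC box and 2 a MEF2 motif, the latter in KLF2 and in KLF12. A match describes the letters of the window and does not show binding.

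The arrays were close in overall level, with median intensities of 92.2 to 95.4. A probe set counted as measured when its geometric mean over the arrays was above 93.9, the median of all probe sets, and a gene was read from its probe set with the highest mean. By this rule 24 of the 35 KLF probe sets and 9 of the 10 KLF genes were measured, KLF4 being the exception, among 12446 measured genes in all. As a stand-in for technical spread, probe sets of the same gene had a pooled SD of 0.160, 0.189 and 0.180 (log2 difference from control) at 8, 16 and 24 h, which leaves out the spread between cultures. The label of the cells fitted their markers: 11 of 11 plasma cell and myeloma genes were measured, with intensities summed over the list of 73349 to 82177 per array. The count alone is weak, since 12446 of all 19775 genes were measured, and the summed intensities set the list apart. Of markers of other cells, 2 of 6 endothelial, 2 of 7 T and NK cell, 2 of 6 myeloid, 1 of 6 fibroblast and 2 of 3 erythroid genes were measured. Their summed intensities stayed between 492 and 656 on every array for the first 4 lists and between 1367 and 1533 for the erythroid list, which HBB led at 995 to 1219. Endothelial and T cells are known for high KLF2. Of their genes PECAM1 was measured at 235 to 273, VWF at 157 to 177, CD3E at 87.6 to 117 and CD3G at 94.9 to 120, while CDH5, KDR, TEK, TIE1, CD3D, CD2, CD8A, NKG7 and KLRD1 were below the measured level. The part of these markers in the KLF values was not tested.

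KLF2 stood lower than the control by 2.34-fold, 2.47-fold and 2.62-fold after 8, 16 and 24 h. The control array read an intensity of 706, the 8 h array 301, the 16 h array 286 and the 24 h array 269. The 3 treated arrays lay close together and the control array lay apart from them. The arrays read bulk RNA, in which fewer cells with KLF2 and less KLF2 RNA per cell cannot be told apart. The log2 differences from control were -1.23, -1.31 and -1.39. The steps between treated arrays, which do not use the control, were -0.078 from 8 to 16 h and -0.084 from 16 to 24 h. Both steps were smaller than the pooled SD of 0.177 and 0.141 for those steps, so the order of the 3 treated arrays was not resolved. KLF2 was the only one of the 9 measured KLF genes past 2-fold, in either direction, at each of the 3 times. Among all measured genes 0.121% were at least 2-fold lower and 0.129% higher at 8 h, 0.289% lower and 0.386% higher at 16 h, and 0.193% lower and 0.514% higher at 24 h. At least 2-fold lower at all 3 times were 0.0161% (KLF2 and HES1). These values chose KLF2, so nothing is read from them.

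The KLF2 difference rests on 1 probe set. A second KLF2 probe set was dim, with intensities of 63.6 (control), 53.0 (8 h), 55.5 (16 h) and 54.6 (24 h), and did not count as measured. It too was highest on the control array, but its log2 differences were -0.26, -0.20 and -0.22. It lay near the floor of 48.4 to which low values were raised, and the part of its dimness in the smaller differences was not tested.

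**Figure D1:**
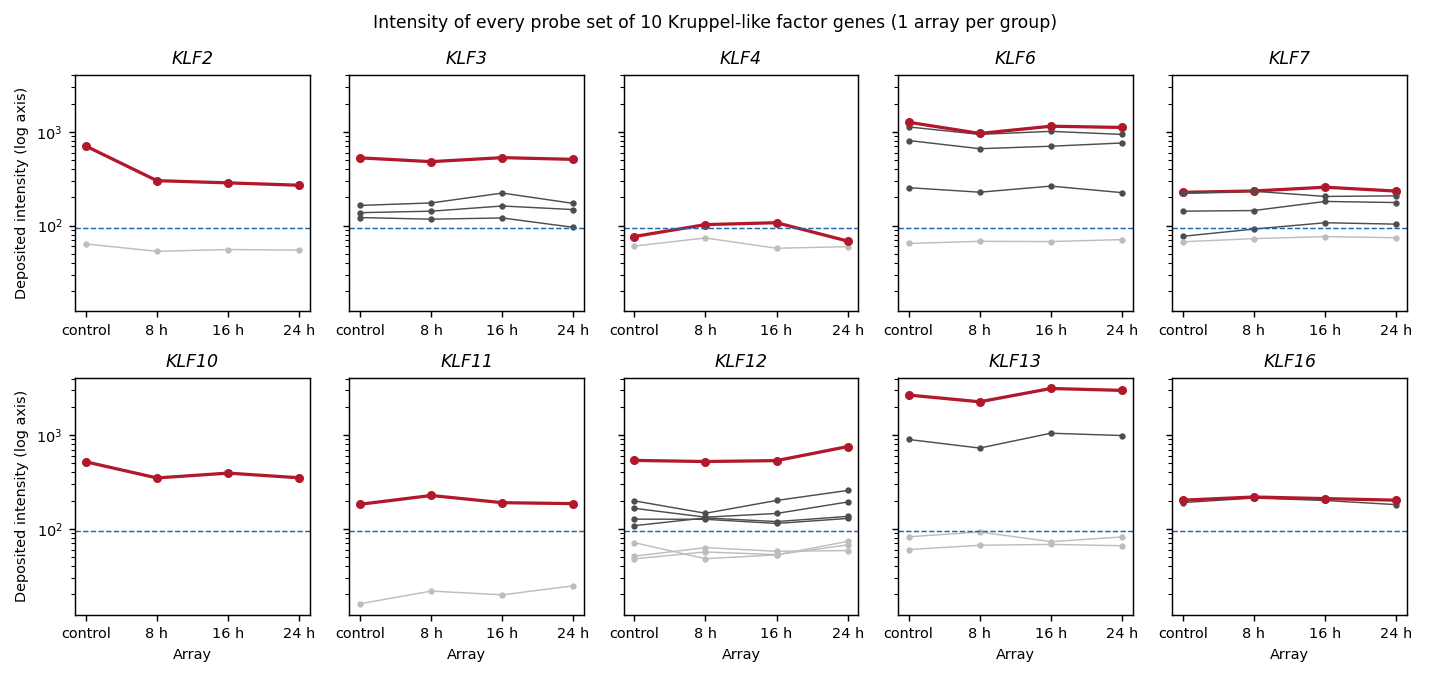
Deposited intensity (log axis) of every probe set of the 10 KLF genes on the 4 arrays, with the probe set that stands for the gene in red, other probe sets above the filter in dark grey, those below it in light grey and the filter as a dashed blue line. The KLF2 probe set drops from 706 to between 269 and 301, while the lines of the other genes are flatter.

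KLF4, KLF6 and KLF7 are, like KLF2, often described as activators. KLF6, a growth-restraining factor first known as an early response gene, had intensities of 1268, 962, 1150 and 1115 on the control, 8, 16 and 24 h arrays. All 3 treated arrays were lower than the control, with the lowest value at 8 h. The log2 differences were -0.40, -0.14 and -0.19, and 3.62% of measured genes were as low at 8 h. Its 4 measured probe sets were all below the control at 8 h (-0.40 to -0.16) and at 24 h (-0.27 to -0.088), and 3 of 4 were at 16 h (-0.20 to 0.055).

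KLF7, best known from developing neurons, had intensities of 226, 234, 257 and 233 on the control, 8, 16 and 24 h arrays, which differed from the control by at most 0.18 (log2). Its other measured probe sets did not move alike. The dimmest stood at 0.26, 0.48 and 0.43 and the next at 0.023, 0.35 and 0.31, while the brightest of them stood at 0.066, -0.12 and -0.10. The dimmest was close to the filter. It lay under the filter on the control array, at 76.8, and passed it only through the 16 and 24 h arrays. Its direction therefore carries no weight. KLF4, a factor of stem cell identity and growth arrest, had no measured probe set. Its brighter probe set had intensities of 76.3, 102, 107 and 68.2, high at 8 and 16 h, and its dimmer one 60.4, 73.7, 57.2 and 59.5, high at 8 h alone. No direction is given for KLF4 because these values lie near or under the array median.

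KLF3 and KLF12 repress transcription by recruiting the CtBP corepressors. KLF3 had intensities of 528, 481, 531 and 509 on the control, 8, 16 and 24 h arrays, and no difference from control was beyond 0.14 (log2) in size. Its 4 measured probe sets agreed in being lower at 24 h than at 16 h (-0.37 to -0.062), and 3 of them stood higher on the 16 h array than on the control, at 0.44, 0.24 and 0.0077. The median of the 4 differences at 16 h was 0.12, against 0.0077 in the brightest probe set.

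KLF12 stood apart from the other KLF genes at 24 h. The intensities were 536, 522, 534 and 754 in the order control, 8, 16 and 24 h. The first 3 arrays lay together and the 24 h array lay above them. The log2 difference from control was -0.039, -0.0071 and 0.49, and 4.48% of measured genes were as high at 24 h. The step from 16 to 24 h was 0.50, which 1.35% of measured genes reached or passed. In that step each of the 5 measured KLF12 probe sets was above 0, from 0.18 to 0.50. At 24 h against control the 5 were also above 0, from 0.025 to 0.49, whereas at 8 h they ran from -0.44 to 0.28. These probe sets read the same RNA on the same arrays and are not replicates.

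KLF10, KLF11, KLF13 and KLF16 belong to the branch that represses through the SIN3A corepressor, and KLF10 and KLF11 are early targets of TGF-beta. KLF10 had intensities of 518 (control), 349 (8 h), 392 (16 h) and 350 (24 h). As for KLF2, the control array was the highest and the 3 treated arrays lay together below it. The log2 differences were -0.57, -0.40 and -0.57, values as low as which were found in 1.23%, 6.64% and 2.53% of measured genes. It has 1 probe set, so no second reading was at hand. KLF11, its closest relative, had intensities of 182, 226, 190 and 185, highest at 8 h, with log2 differences of 0.31, 0.057 and 0.024.

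KLF13, a factor of lymphocyte activation, had intensities of 2676 (control), 2267 (8 h), 3143 (16 h) and 3000.41 (24 h). It was below the control at 8 h and above it at 16 and 24 h. The log2 differences were -0.24, 0.23 and 0.17, and the step from 8 to 16 h was 0.47, which 3.90% of measured genes reached or passed. The other measured probe set gave -0.30, 0.22 and 0.14, with a step of 0.53. The dimmer pair of its probe sets, which were not measured, did not show the 8 h dip, at 0.17 and 0.15. KLF16 was the flattest of the 9 over the 4 arrays, with intensities of 202, 218, 210 and 202 and a range of 0.11 (log2), a size that 92.8% of measured genes reached or passed.

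**Figure D2:**
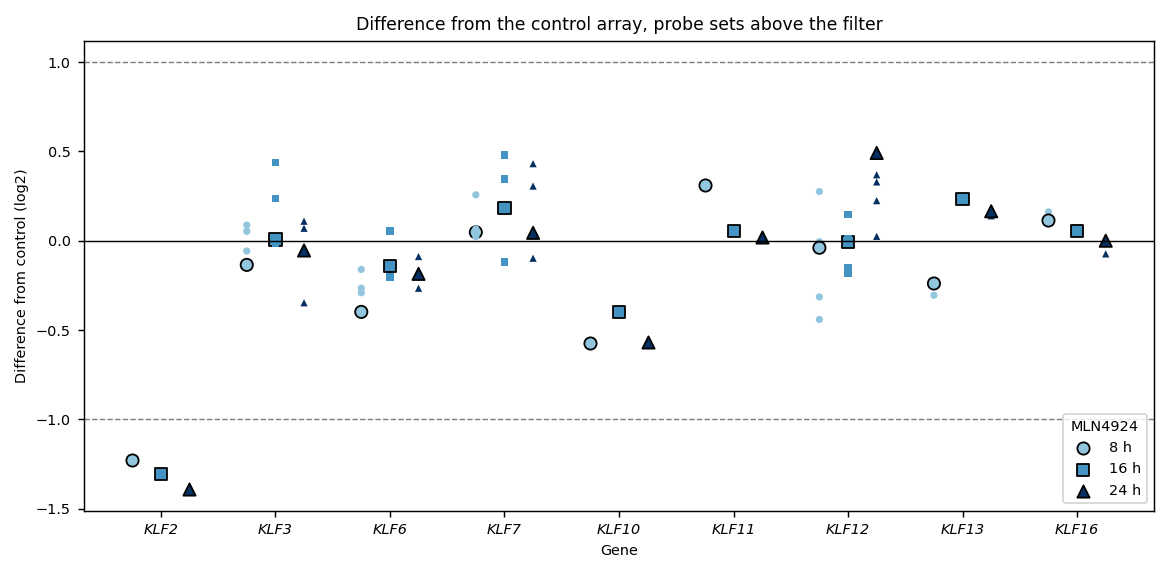
Log2 difference from the control array for the 24 measured probe sets of 9 KLF genes at 8 h (circles), 16 h (squares) and 24 h (triangles), with the probe set that stands for the gene outlined and 2-fold as dashed lines. KLF2 lies below the lower dashed line at each time, KLF10 between -0.57 and -0.40, and the other genes on both sides of 0.

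Set against the technical spread, few of the other differences stood out. A size of 2 times the pooled SD, a mark chosen after the values were seen, was 0.32, 0.38 and 0.36 (log2) at 8, 16 and 24 h. Beyond it lay KLF2, KLF6 and KLF10 at 8 h, KLF2 and KLF10 at 16 h, and KLF2, KLF10 and KLF12 at 24 h. Of all measured genes 12%, 15.6% and 17.1% lay beyond the same marks. In the steps between treated arrays KLF13 alone was beyond it from 8 to 16 h (14.7% of all measured genes) and KLF12 alone from 16 to 24 h (9.75%).

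As a group the KLF genes did not share a direction. For the 9 measured genes the median log2 differences were -0.14, 0.0077 and 0.00021 at 8, 16 and 24 h, beside 0.0071, 0.026 and 0.016 for all measured genes. Below the control were 6 of 9 at 8 h, 4 of 9 at 16 h and 4 of 9 at 24 h, beside 48.3%, 45.7% and 47.4% of all measured genes. KLF2, picked because it was low, is part of these medians and is counted as below the control each time, under each scaling. With the arrays scaled to the same median 7 of 9 were below at 24 h and 5 of 9 at 16 h, beside 55.4% and 51.2% of all measured genes. Under that scaling KLF7, KLF11 and KLF16 changed sign at 24 h and KLF3 at 16 h. With quantile normalization 6 of 9 were below at 24 h and 3 of 9 at 16 h, beside 48.7% and 44.1% of all measured genes. There KLF11 and KLF16 changed sign at 24 h and KLF12 at 16 h. The count at 24 h thus depended on the scaling. From 16 to 24 h, 8 of 9 were lower, with steps of -0.17 to -0.033 (log2), KLF12 being the exception, and 54.5% of all measured genes were lower. No KLF gene passed 2-fold in either step, where 0.161% of measured genes were lower and 0.217% higher from 8 to 16 h, and 0.0402% higher from 16 to 24 h.

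**Figure D3:**
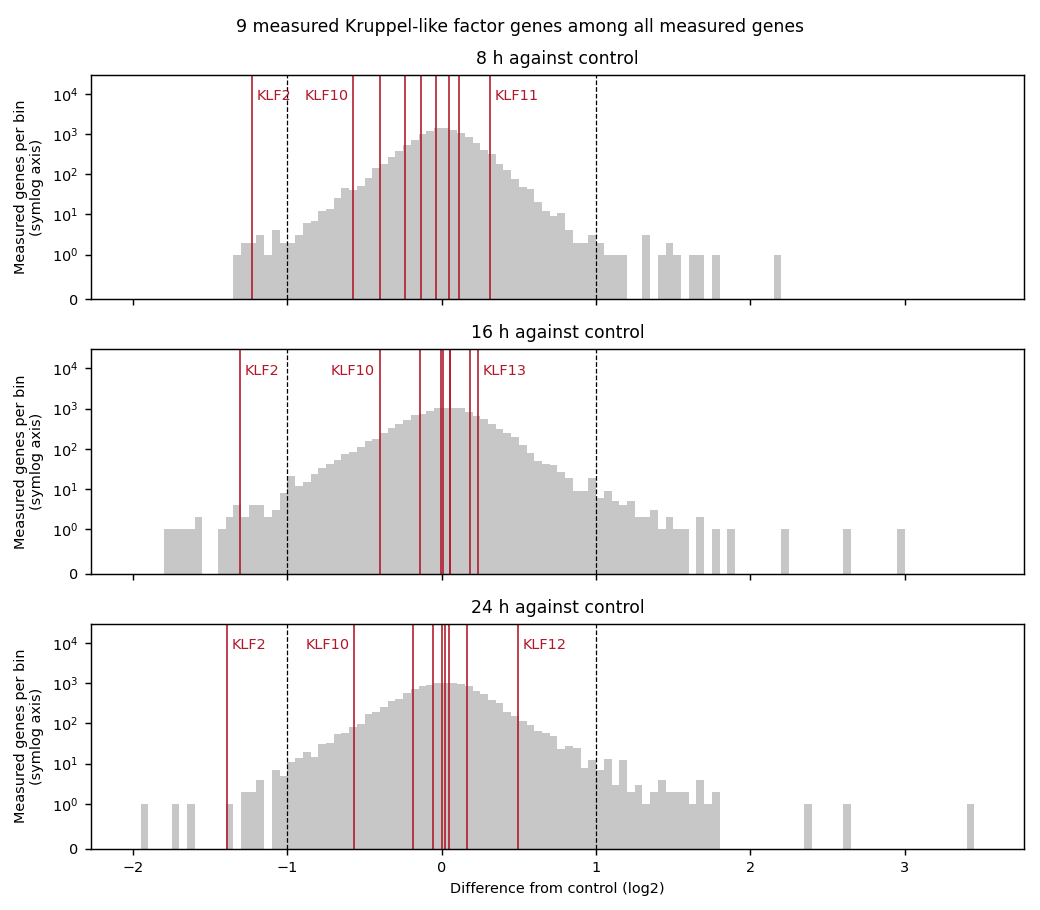
Number of measured genes (grey bars of width 0.05, symlog axis) by log2 difference from control at 8, 16 and 24 h, with the 9 measured KLF genes as red lines and 2-fold as dashed lines. KLF2 lies in the lower tail at each time, KLF10 on its shoulder, and the highest KLF gene is KLF11 at 8 h (0.31), KLF13 at 16 h (0.23) and KLF12 at 24 h (0.49).

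The genes most like KLF2 were found by the Euclidean distance over the 3 log2 differences from control, among the 12446 measured genes. This describes 4 arrays with 1 shared control. The nearest was HES1, a repressor downstream of Notch, at a distance of 0.28 and with intensities of 392, 163, 190 and 162 on the control, 8, 16 and 24 h arrays. TUBB2B, a beta-tubulin, followed at 0.48, with 240, 139, 103 and 102. Next came SCNN1G, a sodium channel subunit (0.66), CDCA7, a chromatin protein of cycling cells (0.66), RASSF4, a Ras-association protein (0.69), and PSMC3IP, a recombination factor (0.70). STOM, a membrane scaffold protein, and PHACTR1, a regulator of protein phosphatase, stood at 0.71 and 0.81. Only KLF2 and HES1 of these 9 were at least 2-fold lower at 3 of 3 times, beside 0.0161% of all measured genes. The neighbours were chosen on the same differences that chose KLF2, so their low values follow from the choice. TUBB2B, CDCA7 and PSMC3IP had steps of -0.44, -0.90 and -0.58 (log2) from 8 to 16 h, while the KLF2 step was -0.078. The nearest KLF gene was KLF10, at rank 184 and a distance of 1.39.

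**Figure D4:**
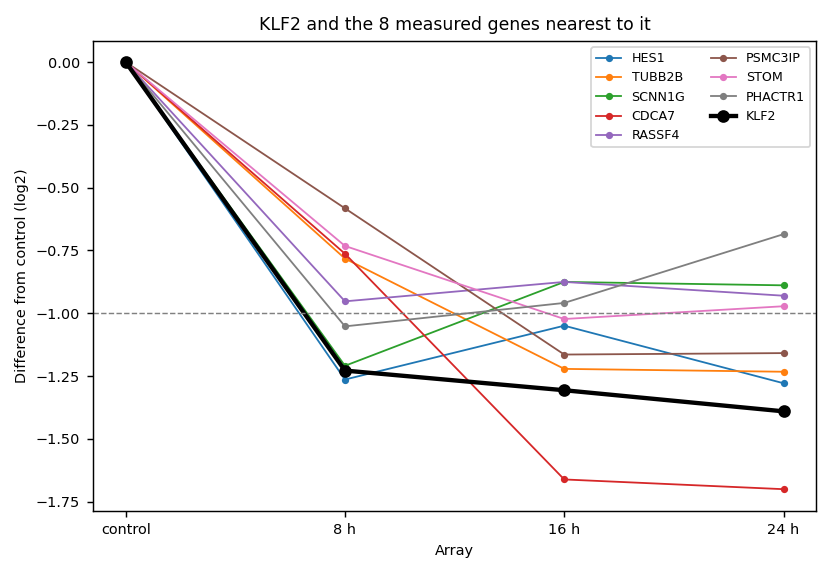
Log2 difference from control on the 4 arrays for KLF2 (thick black line) and the 8 measured genes nearest to it, with 2-fold as a dashed line. HES1 is the line that stays closest to KLF2, at -1.26, -1.05 and -1.28.

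Other members of the KLF and SP families showed no 2-fold difference in the probe sets that stand for them. Of 16 listed genes, 10 were measured, with medians of -0.077, -0.023 and -0.079 (log2) at 8, 16 and 24 h. Over the 3 times 0.121% to 0.289% of all measured genes were at least 2-fold lower and 0.129% to 0.514% higher. None among 10 genes therefore says little. KLF9, a target of glucocorticoid and thyroid hormone receptors, had intensities of 82.9, 106, 113 and 122, with log2 differences of 0.36, 0.44 and 0.55. A second KLF9 probe set, at 69.4 on the control array, stood at 0.30, 0.62 and 1.01. Both lay under the 93.9 limit on the control array and passed it only through the treated arrays, so their direction carries no weight. The other 3 KLF9 probe sets, all below the limit, stood at -0.29, -0.15 and 0.021, at 0.24, -0.084 and -0.064, and at 0, 0.084 and 0. KLF5, a factor of proliferating epithelium, stood at -0.065, -0.23 and -0.62, but its second measured probe set stood at -0.049 at 24 h. KLF15, a metabolic regulator, stood at -0.46, -0.15 and -0.41, and SP8, a developmental factor, at 0.18, 0.0046 and 0.28. The ubiquitous SP1, which binds the same GC boxes, stood at -0.090, 0.15 and 0.021.

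Many of the genes that KLF2 is known to act on in lymphocytes and endothelium could not be read. The list was not split into genes that KLF2 raises and genes that it lowers. A shared direction was therefore not to be looked for, and nothing about KLF2 is read from the list medians. Of 18 listed, 7 were measured, with medians of 0.019, 0.075 and 0.097 (log2), and S1PR1, the receptor for lymphocyte egress, was below the filter, at 44.4 to 56.1. ITGB7, the homing integrin subunit, had intensities of 19294, 18640, 19355 and 17265, with differences of -0.050, 0.0046 and -0.16. IRF4 stood at -0.29, 0.14 and 0.14, and at 16 and 24 h its second measured probe set took the other sign. At least 2-fold from control were CXCR3, a chemokine receptor of activated lymphocytes, and CDKN1A, which encodes the cell cycle inhibitor p21. CXCR3 had intensities of 659 (control), 1005 (8 h), 1755 (16 h) and 2099 (24 h), each array higher than the one before, with log2 differences of 0.61, 1.41 and 1.67. CDKN1A was lower on each array than on the one before, with intensities of 1324, 1092, 834 and 641 and differences of -0.28, -0.67 and -1.05. Of all measured genes 0.386% were at least 2-fold higher at 16 h, 0.514% at 24 h and 0.193% lower at 24 h. PTGDS, a prostaglandin synthase, stood at 0.45, 0.20 and 0.27, with its other measured probe set of opposite sign.

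Regulators of KLF2 transcription and KLF protein turnover had medians of -0.0014, 0.088 and 0.093 (log2) over 19 measured of 20 listed genes. None was past 2-fold, which says little for 19 genes. Of all measured genes only 0.121% to 0.289% were past it downward and 0.129% to 0.514% upward over the 3 times. WWP1, a ubiquitin ligase that acts on KLF2 and KLF5 proteins, had intensities of 519, 740, 716 and 720 and differences of 0.51, 0.46 and 0.47. In this probe set all 3 treated arrays lay together above the control. The other measured WWP1 probe set was also above the control, at 0.65, 0.38 and 0.31, but was highest at 8 h, with a step of -0.27 from 8 to 16 h. KDM3A, a histone demethylase described at the KLF2 promoter in myeloma, had 949, 933, 1263 and 1272, with differences of -0.024, 0.41 and 0.42. The MEF2 factors were slightly higher at 24 h, MEF2A by 0.29, MEF2C by 0.28 and MEF2D by 0.29, although 2 of 4 measured MEF2A probe sets had the opposite sign. The kinase gene MAPK7 (ERK5) stood at 0.015, -0.072 and -0.045. The class II deacetylases, which restrain MEF2, did not share a direction. HDAC4 stood at -0.12, -0.17 and -0.28, and its other measured probe set at 0.20, -0.040 and 0.16. HDAC5 stood at 0.036, 0.28 and 0.35, with both measured probe sets above 0 at 24 h, and HDAC7 at -0.057, 0.28 and -0.16.

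TGF-beta pathway genes, upstream of KLF10 and KLF11, had medians of 0.022, 0.060 and 0.17 (log2) over 13 measured of 14 listed. The list mixes genes that carry the signal with genes that restrain it, so these medians give no direction of the signal. None was past 2-fold, beside 0.121% to 0.289% of all measured genes downward and 0.129% to 0.514% upward, so this says little. SKI, a repressor of SMAD signalling, stood at 0.57, 0.51 and 0.58, with intensities of 242, 358, 344 and 360, but its other measured probe set stood at 0.0015, 0.077 and 0.12. The ligand TGFB1 stood at -0.040, 0.47 and 0.49, while its other measured probe set was highest at 8 h, at 0.44, 0.20 and 0.23. That probe set lay under the filter on the control array, at 90.4, and passed it only through the treated arrays. Its direction against the control therefore carries no weight. The feedback inhibitor SMAD7 stood at 0.013, 0.40 and 0.40. The receptor TGFBR1 stood at -0.21, -0.37 and -0.39 and the mediator SMAD4 at -0.14, -0.17 and -0.17. Partner proteins of the KLF factors had medians of -0.11, -0.040 and -0.059 over 11 measured of 14 listed. Among them the corepressor CTBP2 stood at -0.30, -0.30 and 0.22. Its 2 other measured probe sets stood at 0.24, 0.26 and 0.43 and at 0.18, 0.33 and 0.36. Both differed in sign from it at 8 and 16 h. On the control array, however, these 2 lay under the filter, at 93.3 and 86.3, and passed it only through the treated arrays. Their direction therefore carries no weight. The deacetylase HDAC3 stood at 0.19, 0.17 and 0.24. At 24 h the histone methylation cofactor WDR5 stood at -0.42 and the coactivator CREBBP at -0.20, with 1 of 3 measured CREBBP probe sets of opposite sign.

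Immediate early genes are a class in which KLF2, KLF6 and KLF10 are often placed. Of 22 listed, 13 were measured, with medians of 0.039, 0.035 and -0.047 (log2). At 8, 16 and 24 h 0 of the 13 were at least 2-fold lower, beside 0.121%, 0.289% and 0.193% of all measured genes. None was at least 2-fold higher, beside 0.129%, 0.386% and 0.514%. MAFF, a small MAF factor, stood at 0.039, 0.78 and 0.77 and IER2 at 0.22, 0.44 and 0.29. The phosphatase gene DUSP2 stood at -0.20, -0.23 and -0.60 and IER5 at -0.14, -0.19 and -0.32, both below the control at all 3 times. EGR1 and FOS, the defining members, were below the floor on each array, at 13.2 to 24.3 and 23.2 to 29.9.

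**Figure D5:**
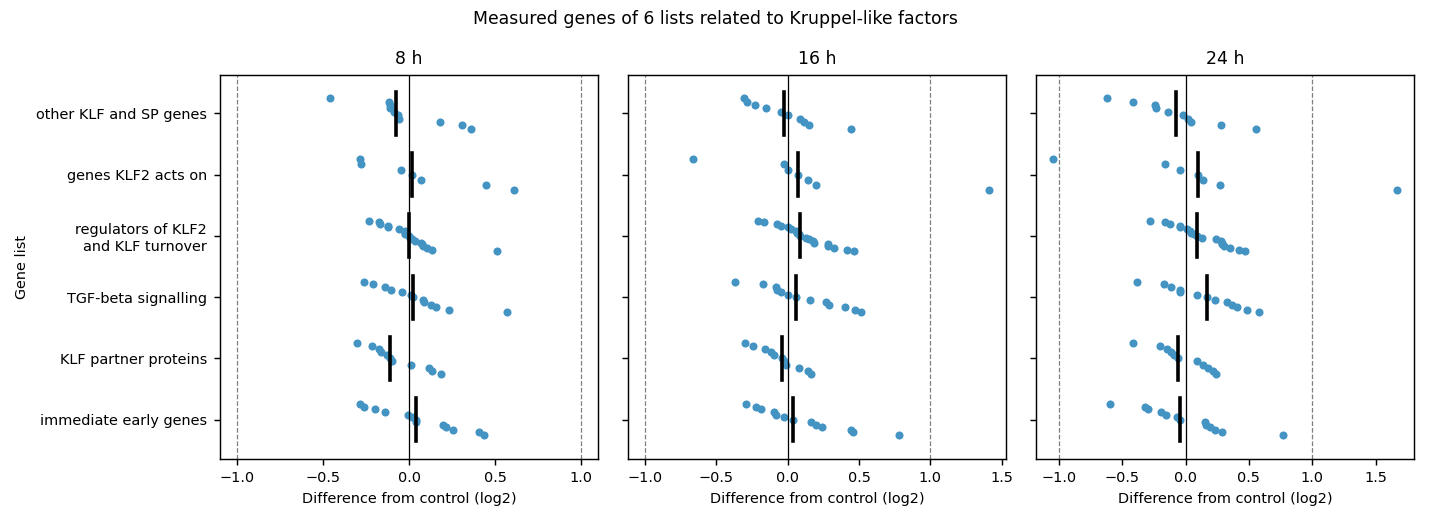
Log2 difference from control at 8, 16 and 24 h for the measured genes of 6 lists around the KLF factors (points), with each list's median as a black bar and 2-fold as dashed lines. The medians lie between -0.11 and 0.17, and the points beyond 2-fold are CXCR3 at 16 and 24 h and CDKN1A at 24 h.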

How the data were processed

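Per the labels, Trizol RNA of MM.1S cells was labelled with biotin as cRNA for Affymetrix arrays. The authors deposited linear intensity values per probe set, whose summary and normalization were not described in the labels. The quartiles of the 4 arrays were nearly equal, so no normalization was added. The labels do not name separate cultures beyond the 4 samples.

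Of 54675 probe sets, 41097 were annotated to 1 gene, 1801 to several and 11777 to none. Values below the 25th percentile (48.4) were set to it before log2 was taken. Genes were measured above the median of probe set means. Differences between arrays were taken with no test, and at least 2-fold was the size called. Steps were tested on simulated data (numpy 2.4.6, pandas 2.3.3, Python 3.11.15).

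The KLF genes and all lists were chosen with earlier results of these data known. Named from each list were genes past 2-fold at any time and the 2 highest and 2 lowest at 24 h, and as neighbours of KLF2 the 8 nearest genes. Other list genes (SP1, S1PR1, IRF4, MEF2A, MEF2C, MEF2D, MAPK7, HDAC5, SMAD7, EGR1 and FOS) and the defining cell markers were named after their values were seen. Alternatives were other normalizations, floors, filters and probe set summaries, and 1, the median over measured probe sets, was added after the data were seen.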

Additional observations from a re-analysis of the deposited data

Results flagged for a closer look

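KLF13 stood on opposite sides of the control on 2 arrays, at -0.24 (log2) at 8 h and 0.23 at 16 h, each beyond the pooled SD of its time (0.160 and 0.189). With 1 array per group the difference was not tested.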

How the results depend on the processing

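No paired analysis was possible because each group is 1 array, and for the same reason no replicate could be left out. KLF2 kept its direction under every alternative run, and stayed past 2-fold under both other normalizations, without the floor and with log2(value + 50), at -1.11 to -1.44 over the 3 times. With the median over its 2 probe sets it stood at -0.75, -0.75 and -0.80 at 8, 16 and 24 h, and without probe sets named _x_at or _s_at, which leaves the dim one, at -0.26, -0.20 and -0.22. Under each of these 0 KLF genes were at least 2-fold lower, against 1. Of all measured genes, 9, 22 and 20 of 10637 were at least 2-fold lower at 8, 16 and 24 h in the first. In the second these were 11, 31 and 14 of 9563. At such low shares a count of 0 among so few KLF genes says little. KLF4 and KLF10 have no value in the second. Of 165 values of the other measured KLF genes under alternatives, 152 moved by less than the pooled SD and 17 took the other sign; KLF13, left with a dim probe set, stood at 0.17 at 8 h and -0.17 at 16 h. Of 162 list medians, 156 moved by less than that and 27 took the other sign; the TGF-beta median at 24 h stood at -0.035 with the median over all probe sets of a gene. Counts of all genes at least 2-fold lower ran from 6 to 16, 20 to 47 and 14 to 35 at 8, 16 and 24 h (15, 36 and 24 as reported), and of higher ones from 10 to 17, 30 to 53 and 37 to 68 (16, 48 and 64). At 24 h, arrays scaled to the same median gave 57 higher and 35 lower. Dim signal limits KLF4, KLF9 and the second KLF2 probe set.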
